A study of Mus musculus with 2 samples.

Results

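The C/EBP transcription factors are basic leucine zipper proteins, and 5 of their genes were followed here through the cells of the mouse colon: Cebpa, Cebpb, Cebpd, Cebpe and Cebpg. They were taken by symbol, and each matched 1 of the 31053 genes in the matrices of both libraries, so 5 of 31053 genes are described. Droplet single-cell RNA sequencing with a 3′ kit was run on lamina propria cells, that is, cells of the connective tissue beneath the gut epithelium. One library was labelled deficient for lncly6c, a long noncoding RNA gene also called 1700016P04Rik, and the other was labelled wild type. By its title and design text, the study asked how lncly6c bears on the passage of Ly6C-high cells to Ly6C-low macrophages and named C/EBP and Nr4a1 in that context.

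The deficient-labelled library came from male C57BL/6 mice aged 6-8 weeks in which CRISPR-Cas9 cuts on both sides of the gene had deleted the whole gene. The wild-type-labelled library came from male C57BL/6 mice of the same age, and both groups were kept free of specific pathogens. How many mice went into each library is not given in the sources used here, and each group was 1 library. There was therefore no replicate and no test between the groups, and all intervals below are 95% intervals that cover counting error only. The deposited files are named with the opposite genotype words. If those names rather than the labels were right, each direction given here would be exchanged. The deleted gene had 0 UMIs (unique molecular identifiers, 1 per captured RNA molecule) in both libraries, so it could not serve as a check of the labels.

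C/EBP proteins bind DNA as pairs, with one another or with related leucine zipper proteins, and they act at several steps of myeloid development. C/EBPα starts the granulocyte and monocyte programme, C/EBPβ serves emergency granulopoiesis, macrophage activation and the survival of Ly6C-low monocytes, and C/EBPε is needed for the late steps of granulocyte maturation. C/EBPδ responds to inflammatory signals and glucocorticoids and is also known from fat and connective tissue cells, whereas C/EBPγ lacks a classical activation domain and pairs with Atf4 in the stress response. Nr4a1, a nuclear receptor needed by Ly6C-low monocytes, has been described as a target of C/EBPβ in these cells.

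On the GRCm38 build with GENCODE M21 annotation, Cebpb is a gene of 1 exon on the plus strand of chromosome 2, at chr2:167688915-167690418. Cebpa lies on the plus strand at chr7:35119293-35121928, and Cebpg lies on the minus strand of the same chromosome at chr7:35046422-35056573, with 62719 bases between them. Cebpd was annotated at chr16:15887286-15891031 on the plus strand and Cebpe, with 2 exons, at chr14:54710360-54712174 on the minus strand. Tmem189 overlaps Cebpb on the opposite strand and had 4611 UMIs in the deficient-labelled library and 2227 in the wild-type-labelled library. Spidr overlaps Cebpd on the opposite strand, with 396 and 197 UMIs in the same order. Whether the authors' counting used strand is not given in the sources used here, so reads of each overlapping pair could be mixed.

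The promoter windows are shown for Cebpb, which made up most of the family's molecules, for Cebpa and Cebpg, which are neighbours with unlike patterns over cell types, and for Nr4a1, which the study's title names with C/EBP. Each runs from 250 bases before to 50 bases after the gene start in the direction of transcription and comes from RefSeq on GRCm38.p6. Capitals mark the TATA box letters TATAAA, the CCAAT box letters CCAAT and TGACG, the core of the cyclic AMP response element, read on either strand, so that ATTGG and CGTCA are the last 2 on the minus strand. The windows are chr2:167688665-167688964 on the plus strand for Cebpb, chr7:35119043-35119342 on the plus strand for Cebpa, chr7:35056517-35056816 on the minus strand for Cebpg, and chr15:101266596-101266895 on the plus strand for Nr4a1.
Cebpb: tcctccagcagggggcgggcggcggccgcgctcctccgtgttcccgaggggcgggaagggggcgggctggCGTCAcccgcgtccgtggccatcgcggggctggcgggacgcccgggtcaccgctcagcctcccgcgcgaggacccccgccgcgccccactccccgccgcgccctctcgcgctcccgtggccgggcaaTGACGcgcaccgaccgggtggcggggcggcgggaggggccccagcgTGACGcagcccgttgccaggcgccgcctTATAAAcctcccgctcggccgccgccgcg
Cebpa: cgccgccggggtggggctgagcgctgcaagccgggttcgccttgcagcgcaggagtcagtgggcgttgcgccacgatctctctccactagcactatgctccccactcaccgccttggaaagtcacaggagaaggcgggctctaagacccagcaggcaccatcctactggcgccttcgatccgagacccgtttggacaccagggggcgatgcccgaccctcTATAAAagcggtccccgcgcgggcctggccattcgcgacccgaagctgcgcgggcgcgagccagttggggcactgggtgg
Cebpg: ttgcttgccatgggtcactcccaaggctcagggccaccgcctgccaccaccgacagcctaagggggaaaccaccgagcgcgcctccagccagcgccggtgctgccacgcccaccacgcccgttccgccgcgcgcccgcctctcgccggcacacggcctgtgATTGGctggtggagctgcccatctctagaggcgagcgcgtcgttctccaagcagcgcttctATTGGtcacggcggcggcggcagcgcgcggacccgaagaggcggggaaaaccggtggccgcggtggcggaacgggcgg
Nr4a1: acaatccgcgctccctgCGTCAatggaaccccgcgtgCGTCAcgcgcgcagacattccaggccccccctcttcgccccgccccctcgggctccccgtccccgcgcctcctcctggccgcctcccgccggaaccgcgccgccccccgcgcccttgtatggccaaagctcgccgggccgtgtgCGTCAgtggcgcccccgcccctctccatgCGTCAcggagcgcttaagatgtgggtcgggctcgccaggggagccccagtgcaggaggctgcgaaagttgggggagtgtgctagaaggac

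The Cebpb window held 3 TGACG cores, which begin at -180 (minus strand), -53 and -7 from the start, and a TATAAA at 21 bases past the start. The Nr4a1 window, which lies inside the longer gene interval of GENCODE, held 4 such cores, all on the minus strand. The Cebpa window held 1 TATAAA at -30, and the Cebpg window held 2 CCAAT boxes on the minus strand and no TATAAA. The GC box GGGCGG, searched on both strands and not capitalised, was found 5 times in the Cebpb window, of which 2 overlapped, 3 times for Nr4a1, 1 time for Cebpg and 0 times for Cebpa. Among 32851 promoter windows of the same length, 20.8% held TGACG, 13.6% TATAAA, 37.4% CCAAT and 35.7% GGGCGG. The C/EBP palindrome TTGCGCAA, present in 0.183% of all windows, and the looser core TTNNGNAA, present in 40.7%, were in none of these 4 windows. The windows of Cebpd and Cebpe are not shown.

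**Figure D1:**
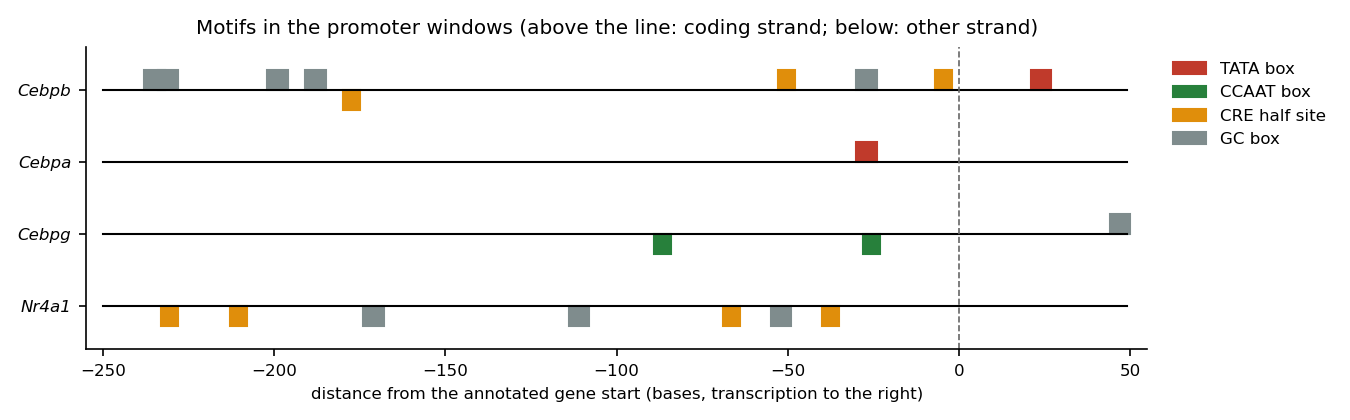
Map of 4 motifs in the promoter windows of Cebpb, Cebpa, Cebpg and Nr4a1; the horizontal axis is the distance in bases from the annotated gene start, and boxes above or below each line mark the strand. Cebpb had 3 TGACG cores (orange) and 5 GC boxes (grey), and Nr4a1 had 4 TGACG cores. The letters TATAAA (red, labelled TATA box) lay before the start of Cebpa and after the start of Cebpb. Whether any match has a function was not tested.

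There were 6133 barcodes with 54773076 UMIs in all in the deficient-labelled library and 3020 with 23384895 in the wild-type-labelled one, with 7 barcode sequences common to both. Filters kept 5890 and 2610 cells (median depth 7849 and 6205 UMIs), and 232 and 408 barcodes were over the mitochondrial limit. Barcodes were placed in cell types by marker genes other than the C/EBP genes, and 13 types had at least 15 cells in each library. Every type is called "-like" because its name rests on RNA alone. Levels are UMIs of a gene per 1000000 UMIs of all genes (CPM), summed over the cells of a type. Since the kit counts the 3′ end of each molecule, they were not scaled by gene length. A lower level in a sum over cells can mean fewer molecules per cell or fewer expressing cells, and the sums do not tell these apart.

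Cebpb was the most abundant member in each of the 13 cell types except fibroblast-like cells, where Cebpd was, and, in the wild-type-labelled library, cDC1-like cells (conventional dendritic cells of type 1), where Cebpg had 41.9 CPM and Cebpb 41.4 CPM. It had 36041 UMIs in the deficient-labelled library and 17246 in the wild-type-labelled library, over all barcodes. In the same order, Cebpa had 2032 and 974 UMIs, Cebpd 4525 and 1162, Cebpe 126 and 113, and Cebpg 2865 and 986. The low total of Cebpe limits what its values can show.

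**Figure D2:**
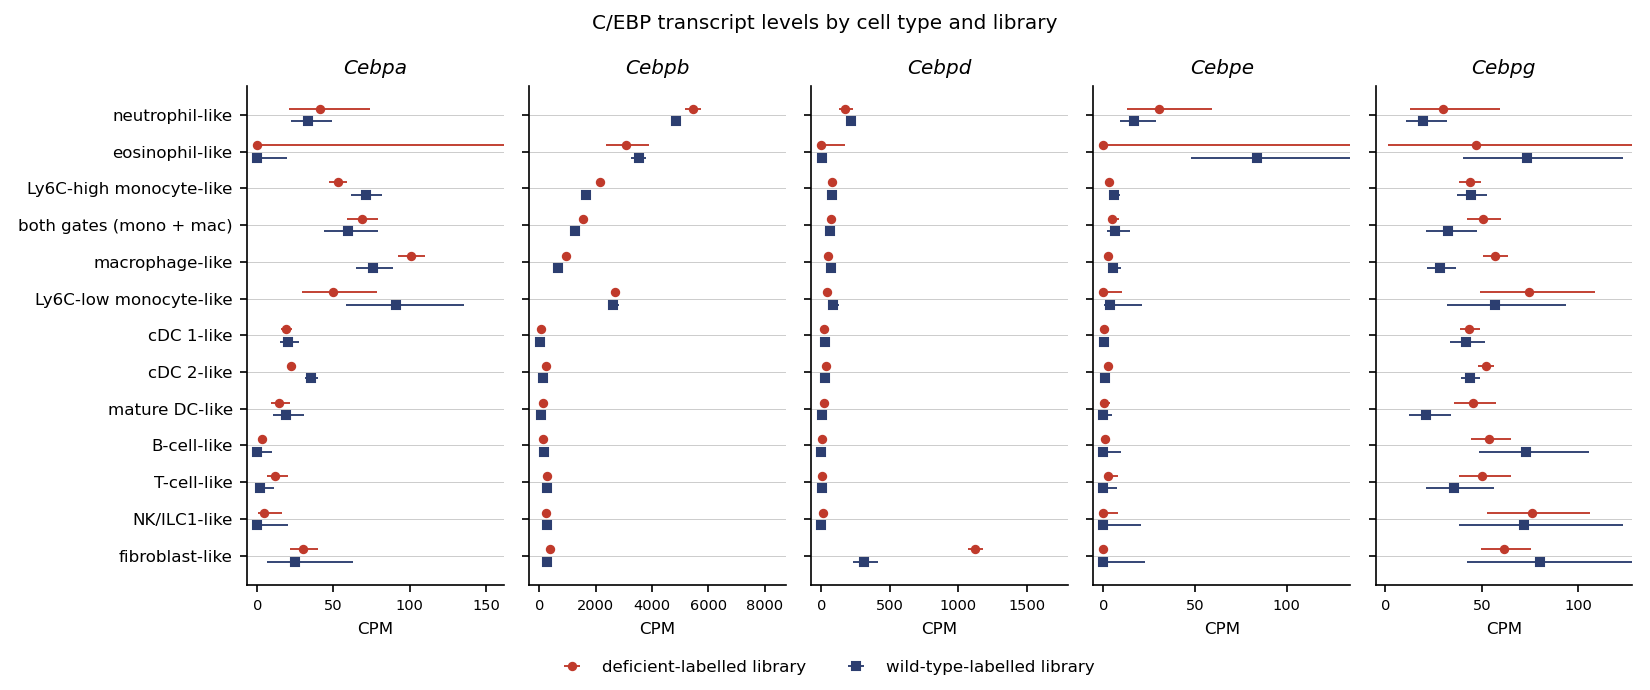
Level of each C/EBP gene in 13 cell types, in CPM on a linear axis that differs between panels, with points for the deficient-labelled (red circles) and wild-type-labelled library (blue squares) and 95% Poisson intervals, some of which run past the panel edge. Cebpb peaked in neutrophil-like cells (5466 and 4841 CPM), Cebpd in fibroblast-like cells (1125 and 314 CPM), and the highest Cebpg level was 80.0 CPM.

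Cebpb, the activating member of granulocytes and inflammatory monocytes, was highest in neutrophil-like cells, at 5466 CPM in the deficient-labelled and 4841 CPM in the wild-type-labelled library. Next came eosinophil-like cells at 3063 and 3526 CPM, Ly6C-low monocyte-like cells at 2702 and 2622 CPM, and Ly6C-high monocyte-like cells at 2139 and 1667 CPM. Below them stood cells that passed both the monocyte and the macrophage gate, at 1558 and 1261 CPM, and macrophage-like cells, at 952 and 676 CPM. This order of these myeloid groups was the same in both libraries. Their counting intervals overlapped between neighbours only for eosinophil-like and Ly6C-low monocyte-like cells of the deficient-labelled library.

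The remaining types held far less Cebpb. Fibroblast-like cells had 380 CPM in the deficient-labelled and 289 CPM in the wild-type-labelled library, T cell-like cells 273 and 262 CPM, cDC2-like cells (conventional dendritic cells of type 2) 245 and 136 CPM, and NK cell or ILC1-like cells 238 and 289 CPM. Mature dendritic cell-like cells had 150 and 72.6 CPM, B cell-like cells 133 and 159 CPM, and cDC1-like cells 63.9 and 41.4 CPM. The highest level was 85.6 times the lowest in the deficient-labelled library and 117 times the lowest in the wild-type-labelled library.

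Cell by cell, after each cell was thinned at random to 1000 UMIs, a Cebpb UMI was found in 96.5% of neutrophil-like cells in the deficient-labelled and 97.6% in the wild-type-labelled library. The shares were 80.6% and 76.6% of Ly6C-high monocyte-like cells and 54.9% and 47.4% of macrophage-like cells. Lymphoid cells serve here as a gauge of free RNA. B cell-like cells had a Cebpb UMI in 10.4% of 517 cells (7.94 to 13.4%) in the deficient-labelled and 17.3% (9.78 to 27.3%) in the wild-type-labelled library, at median depths of 3509 and 4421 UMIs before thinning. Mature dendritic cell-like cells, at 9.85% and 5.77%, and cDC1-like cells, at 5.67% and 2.97%, were at or below that gauge. T cell-like cells gave a higher gauge, at 24.6% and 22.0%. The share in cDC2-like cells was 16.5% (14.1 to 19.1%) in the deficient-labelled library, between the B and T cell-like shares, and 11.7% (8.83 to 15%) in the wild-type-labelled library, below both. The dendritic cell-like types were deeper before thinning, with medians of 12758 and 15545 UMIs in all cDC2-like cells. Free RNA can then make up unlike parts of their UMIs and of lymphoid UMIs. The shares therefore do not tell free RNA from expression. Cebpb in dendritic cell-like types is thus read neither as expression nor as background. The Cebpb ratio between the libraries there is not read as a difference in expression.

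**Figure D3:**
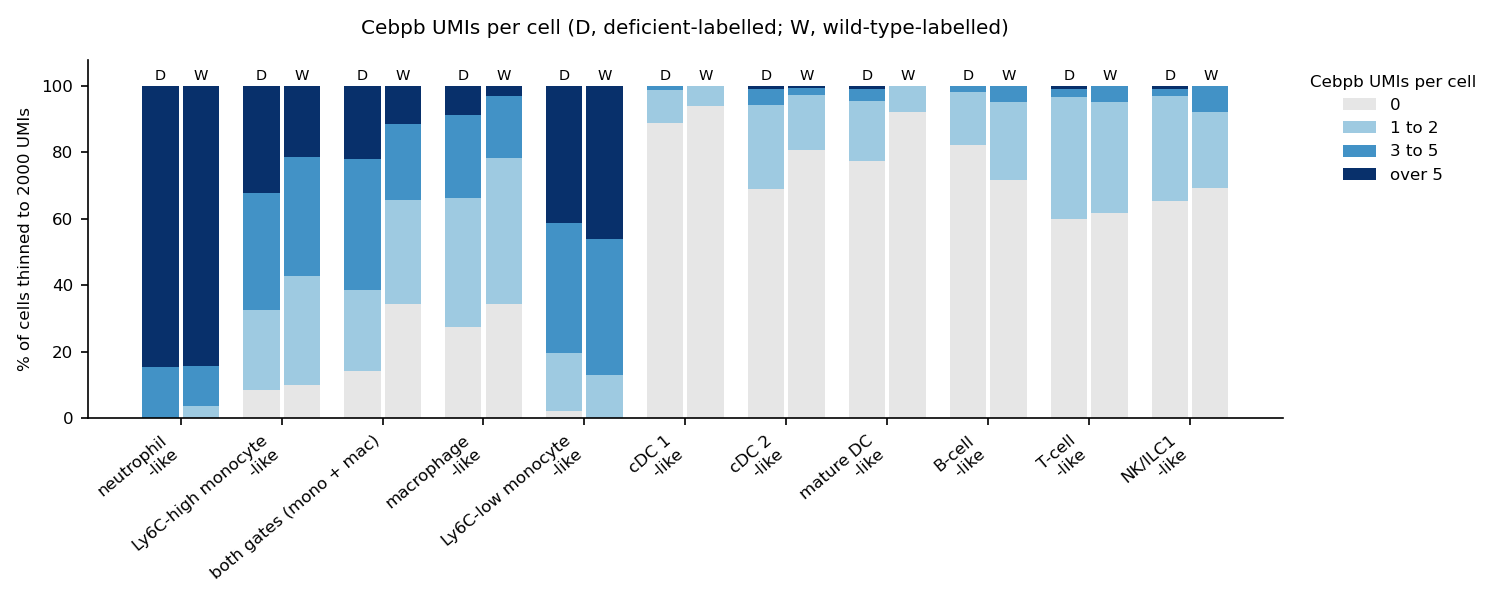
Share of cells (%) with 0, 1 to 2, 3 to 5 or over 5 Cebpb UMIs after thinning each cell to 2000 UMIs, for the deficient-labelled (D, left bar) and the wild-type-labelled library (W, right bar) of each cell type with at least 30 such cells in both. Over 5 UMIs were found in 32.1% and 21.5% of Ly6C-high monocyte-like cells and in 84.6% and 84.2% of neutrophil-like cells.

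Thinned to 2000 UMIs, the median Ly6C-high monocyte-like cell held 4 Cebpb UMIs in the deficient-labelled and 3 in the wild-type-labelled library, and the median macrophage-like cell held 2 and 1. Over 5 UMIs were held by 32.1% of 704 monocyte-like cells of the deficient-labelled library, against 21.5% of 275 of the wild-type-labelled library. The share of these cells without a Cebpb UMI was close, at 8.38% and 9.82%. In macrophage-like cells 27.3% and 34.2% had none. Over 5 UMIs were held by 8.73% and 3.11% of them.

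Cebpa, the factor that starts the granulocyte and monocyte programme, was at most 101 CPM in any type. Its highest level in the deficient-labelled library was in macrophage-like cells, at 101 CPM, against 76.2 CPM in those of the wild-type-labelled library. Cells in both gates had 68.5 and 59.6 CPM, Ly6C-high monocyte-like cells 52.7 and 71.2 CPM, Ly6C-low monocyte-like cells 49.8 and 91.1 CPM, and neutrophil-like cells 41.5 and 33.5 CPM. Dendritic cell-like types were lower, at 22.4 and 35.6 CPM in cDC2-like, 18.9 and 20.5 CPM in cDC1-like and 14.4 and 18.8 CPM in mature dendritic cell-like cells. B cell-like cells had 6 Cebpa UMIs, or 2.89 CPM, in the deficient-labelled library and 0 in the wild-type-labelled library, where a count of 0 allows up to 7.82 CPM. Monocyte-like, macrophage-like, neutrophil-like and dendritic cell-like levels were above this gauge in both libraries. T cell-like cells had 13 Cebpa UMIs, or 11.7 CPM (6.22 to 19.99), in the deficient-labelled and 1 UMI, or 1.98 CPM, in the wild-type-labelled library, and in the deficient-labelled library the intervals of cDC1-like and mature dendritic cell-like cells overlapped this one. By contrast, eosinophil-like cells had 0 Cebpa UMIs, which allows up to 141 and 15.8 CPM.

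Cebpd, which responds to inflammatory and hormonal signals, was highest in fibroblast-like cells, at 1125 CPM from 209 cells of the deficient-labelled library and 314 CPM from 15 cells of the wild-type-labelled library. It made up 70.5% of the family's UMIs in fibroblast-like cells of the deficient-labelled and 44.3% in those of the wild-type-labelled library. Neutrophil-like cells came next, at 173 and 217 CPM, and Ly6C-high monocyte-like cells had 76.2 and 76.1 CPM. B cell-like cells had 1.93 CPM in the deficient-labelled and 0 UMIs in the wild-type-labelled library. The fibroblast level was 6.49 times the neutrophil level in the deficient-labelled library and 1.45 times in the wild-type-labelled library.

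Cebpe, the factor of late granulocyte maturation, had its highest levels in granulocyte types. Eosinophil-like cells of the deficient-labelled library, only 18 cells, had 0 of 21219 UMIs, which allows up to 141 CPM, and the wild-type-labelled library, with 120 eosinophil-like cells, had 16 UMIs, or 84.1 CPM (48.1 to 137). Neutrophil-like cells had 8 UMIs, or 30.2 CPM (13 to 59.4), and 13 UMIs, or 16.8 CPM (8.92 to 28.7). No other type exceeded 6.21 CPM in either library. A Leiden cluster computed without the C/EBP genes was led by Serpinb2, Retnlg and the eosinophil receptor gene Ccr3. It held 243 and 420 cells, most of them not placed in a type by the gates. Of those placed, 96.4% were eosinophil-like. Retnlg is a neutrophil gate marker, and median depths were 713 and 977 UMIs. In this cluster Cebpe had 11 UMIs, or 53.4 CPM, and 49 UMIs, or 102 CPM. So in this larger cluster Cebpe was detected in both libraries, and the log2 ratio of -0.94 had an interval from -2.03 to 0.03.

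Cebpg, the partner of Atf4, was the evenest member. Its level lay between 30.2 and 76.2 CPM over the 13 types of the deficient-labelled library and between 19.3 and 80.0 CPM over those of the wild-type-labelled library. The highest level was 2.53 times the lowest in the deficient-labelled and 4.14 times in the wild-type-labelled library. The type with the least Cebpg was neutrophil-like in both libraries, at 8 and 15 UMIs. Neighbours in the order of levels had overlapping intervals throughout. Since B cell-like cells had 54.0 and 73.0 CPM, no cell type here could serve as a gauge of free RNA for Cebpg.

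Over 13 cell types, the level patterns of Cebpa and Cebpd were the most alike within the family, with a Pearson r of log2(CPM + 1) of 0.79 in the deficient-labelled and 0.85 in the wild-type-labelled library. Cebpa and Cebpb had 0.24 and 0.19, and Cebpb and Nr4a1 had 0.01 and 0.09. The types of a library share its depth and its free RNA, so these values are descriptions. Among 9175 other genes, those most like Cebpb in both libraries were Atp6v1e1, a proton pump subunit, Thbs1, which encodes thrombospondin 1, and Por, which encodes cytochrome P450 reductase, with a lower r of 0.94, 0.93 and 0.93. For Cebpa they were Aldh3b1, Cdc42ep4 and Fam234a, with a lower r of 0.94, 0.93 and 0.92, and for Cebpd they were Thbd, Wdfy3 and Palm, with 0.88, 0.87 and 0.86. Likeness was weaker for Cebpg, with Ube3a, Pkn2 and Uso1 at 0.76, 0.76 and 0.75. Cebpe, from few UMIs, had Il1bos, whose name places it opposite Il1b and whose reads may be mixed with it, Ppp1r10 and Ckap2l at 0.81, 0.78 and 0.78.

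From the monocyte gate through cells in both gates to the macrophage gate, Cebpb stood at 2139, 1558 and 952 CPM in the deficient-labelled library and at 1667, 1261 and 676 CPM in the wild-type-labelled library. Both libraries thus had less Cebpb with each step, and the deficient-labelled library had more at each. The level in Ly6C-high monocyte-like cells was 2.25 times that in macrophage-like cells in the deficient-labelled library (log2 1.17, 1.12 to 1.22) and 2.47 times in the wild-type-labelled library (log2 1.30, 1.22 to 1.39). Cebpa took another course: 52.7, 68.5 and 101 CPM in the deficient-labelled library, but 71.2, 59.6 and 76.2 CPM in the wild-type-labelled library, where neighbouring intervals overlapped. Cebpg stood at 43.8, 50.6 and 56.7 CPM in the deficient-labelled library and at 44.4, 32.3 and 28.3 CPM in the wild-type-labelled library. The order of Cebpg levels over the gates was thus opposite in the libraries, with overlapping intervals between neighbours. Monocyte-like over macrophage-like, Cebpg had log2 -0.37 (-0.62 to -0.13) in the deficient-labelled and 0.65 (0.19 to 1.12) in the wild-type-labelled library. For Cebpa these were -0.94 (-1.15 to -0.73) and -0.10 (-0.41 to 0.21). A difference between the courses of the libraries was not tested.

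**Figure D4:**
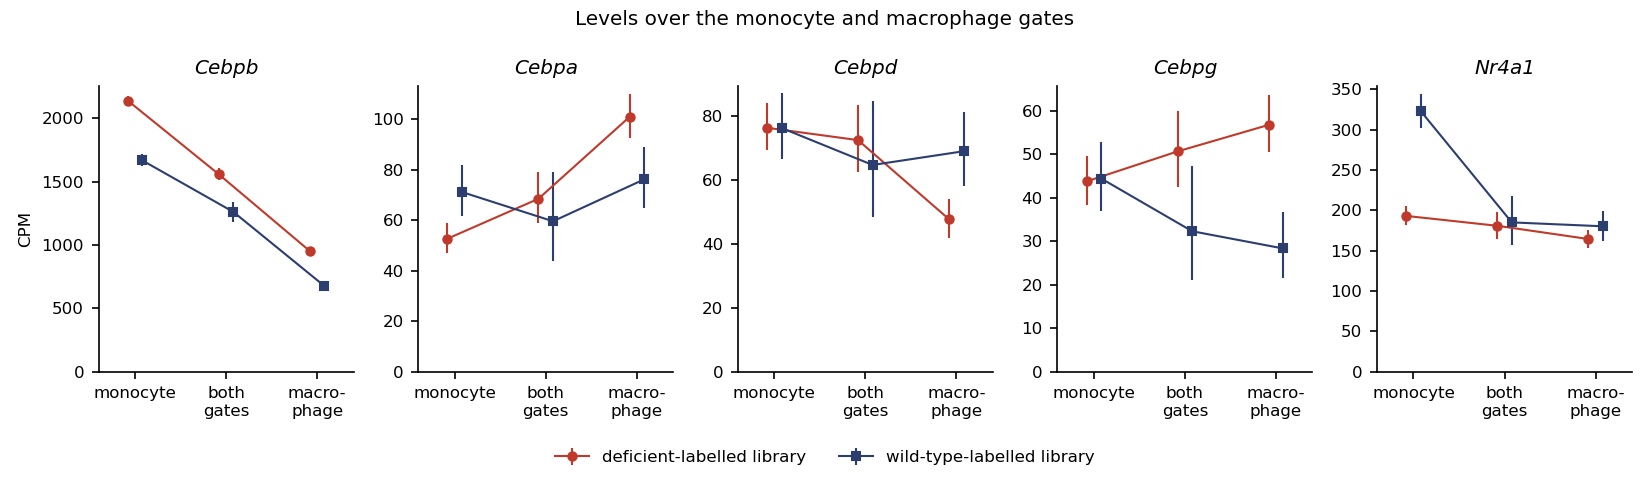
Levels (CPM, linear axis from 0 that differs between panels) of Cebpb, Cebpa, Cebpd, Cebpg and Nr4a1 in cells of the Ly6C-high monocyte gate, of both gates and of the macrophage gate, for the deficient-labelled (red circles) and wild-type-labelled library (blue squares), with 95% Poisson intervals. Cebpb was lower at each step and higher in the deficient-labelled library at each, while Nr4a1 was lower there in monocyte-like cells (193 against 323 CPM) and had overlapping intervals at the other steps.

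Ly6C-low monocyte-like cells, few in both libraries at 52 and 43, stood outside this course. They had 2702 CPM of Cebpb in the deficient-labelled and 2622 CPM in the wild-type-labelled library, which was 1.26 and 1.57 times the level in Ly6C-high monocyte-like cells of the same library. The ratio between libraries was 0.04 on the log2 scale (-0.10 to 0.19). Nr4a1, on which these cells depend, had 871 CPM in those of the deficient-labelled library and 1795 CPM in those of the wild-type-labelled library, a log2 ratio of -1.04 (-1.25 to -0.83), and a cluster led by Ace, Adgre4 and Treml4 gave -0.71 from 69 and 67 cells. Cebpb and Nr4a1 thus had unlike values between the libraries in the same cells.

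Between the libraries, ratios are given as log2 of the CPM in the deficient-labelled over that in the wild-type-labelled library, so a positive ratio means a higher level in the deficient-labelled library. The comparison took types with 50 or more cells in each library, a gene was measured in a type if both libraries together gave 50 or more UMIs, and 1.5-fold was the size used for counts. In Ly6C-high monocyte-like cells (714 and 287 cells), 4 of 5 members were measured and 0 passed 1.5-fold, where 6.8% of all measured genes were over 1.5-fold higher and 6.72% over 1.5-fold lower. Cebpb had a log2 ratio of 0.36 (0.31 to 0.41), Cebpa -0.43 (-0.70 to -0.17), Cebpd 0.00 (-0.24 to 0.24) and Cebpg -0.02 (-0.34 to 0.30). The intervals of Cebpb and Cebpa left out 0, and those of Cebpd and Cebpg spanned it. The median over all measured genes was 0.01.

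Macrophage-like cells (592 and 216 cells) also had 4 members measured. Of these 1 was over 1.5-fold higher, against 7.91% of measured genes, and 0 were over 1.5-fold lower, against 5.24%. The member was Cebpg, at 56.7 CPM from 299 UMIs in the deficient-labelled and 28.3 CPM from 58 UMIs in the wild-type-labelled library, a log2 ratio of 1.0 (0.59 to 1.43). Cebpb had 0.49 (0.41 to 0.58), Cebpa 0.41 (0.15 to 0.67) and Cebpd -0.53 (-0.84 to -0.22). All 4 intervals left out 0. Grouped by Leiden clusters (370 and 125 cells), Cebpg had a ratio of 0.58, just under 1.5-fold.

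Cells in both gates (248 and 61) had 1 of 4 measured members over 1.5-fold higher, where 10.3% of measured genes were, and 0 over 1.5-fold lower, where 7.74% were. It was again Cebpg, at 0.65 on the log2 scale (0.03 to 1.32), from 133 and 26 UMIs. It was under 1.5-fold with a mean over cells (0.48) and in cells with few markers of other myeloid types (0.52). Cebpb was at 0.30 (0.21 to 0.41). Neutrophil-like cells (117 and 258) had 2 members measured and 0 past 1.5-fold, where 9.75% of measured genes were over 1.5-fold higher and 9.93% lower. Their Cebpb ratio of 0.18 (0.09 to 0.26) turned to -0.074 in the neutrophil cluster of 150 and 282 cells and to -0.14 when barcodes of 2 lineages were assigned, so its direction depended on the grouping.

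**Figure D5:**
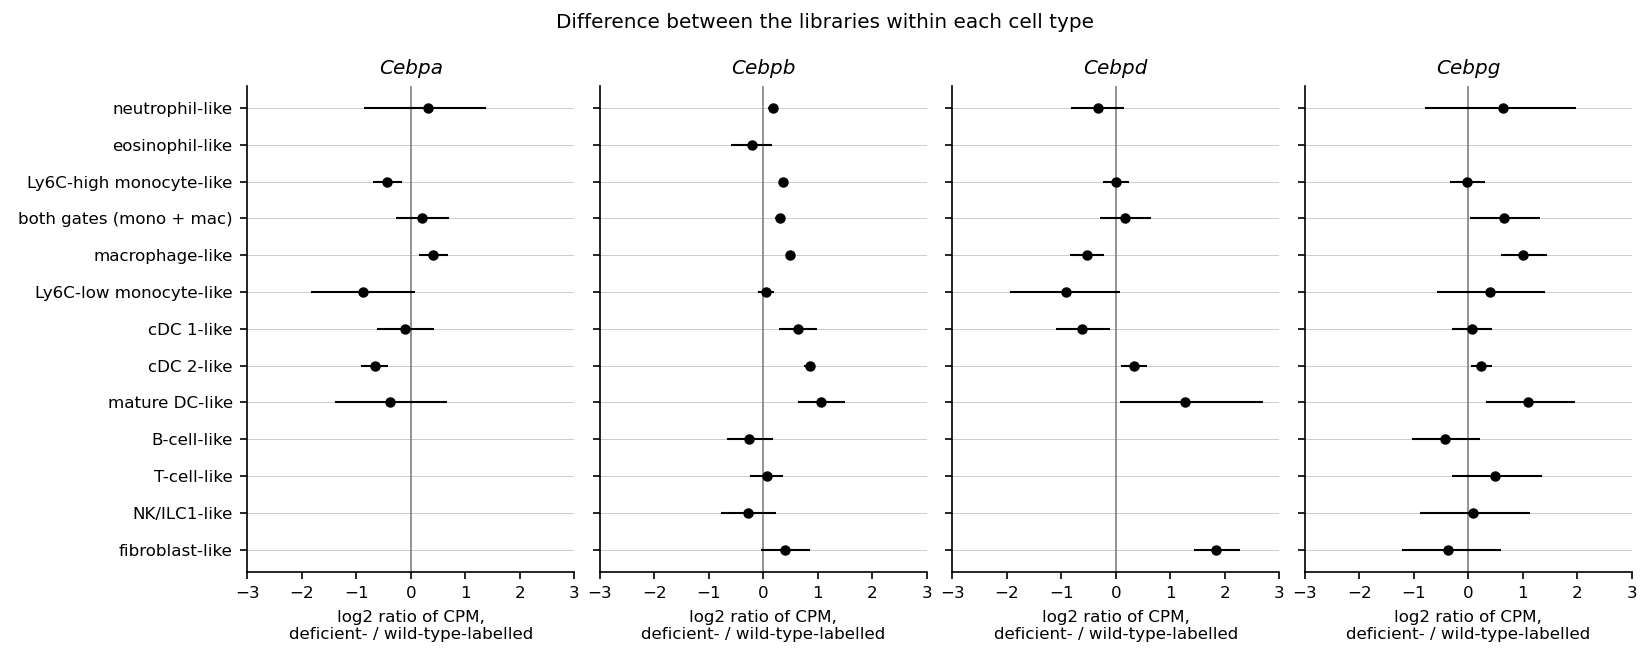
Log2 of the deficient-labelled CPM divided by the wild-type-labelled CPM for Cebpa, Cebpb, Cebpd and Cebpg in each cell type with at least 5 UMIs in both libraries, with 95% intervals that cover counting error only. The intervals of Cebpb lay above 0 in Ly6C-high monocyte-like and macrophage-like cells and spanned 0 in B, T and NK cell-like types. They also lay above 0 in dendritic cell-like types, where Cebpb was not told apart from free RNA and the cDC1 cluster had -0.29. Cebpg was highest in macrophage-like (1.0) and mature dendritic cell-like cells (1.10).

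In cDC2-like cells (898 and 446), 4 members were measured, 1 was over 1.5-fold higher, against 6.22% of measured genes, and 1 over 1.5-fold lower, against 4.91%. Cebpb, not told apart from free RNA here, was the higher one. It had 245 CPM in the deficient-labelled and 136 CPM in the wild-type-labelled library, a log2 ratio of 0.85 (0.75 to 0.95). Cebpa was the lower one, at 22.4 and 35.6 CPM and -0.67 (-0.92 to -0.42). It was under 1.5-fold by Leiden clusters (-0.35), with a mean over cells (-0.53) and in cells with few markers of other myeloid types (-0.57). Cebpd had 0.34 (0.10 to 0.57) and Cebpg 0.24 (0.05 to 0.44). In cDC1-like cells (335 and 101), 1 of 4 measured members was over 1.5-fold higher, against 5.9% of measured genes, and 1 over 1.5-fold lower, against 7.08%. These were Cebpb, at 0.63 but not told apart from free RNA and at -0.29 in the cDC1 cluster, and Cebpd, at -0.61 (-1.10 to -0.11). The call of Cebpd was lost when the gate needed 1 more marker (-0.29) and when ratios were centred on the median gene (-0.57), and the ratio was -1.41 in cells with few markers of other myeloid types. Mature dendritic cell-like cells (132 and 53) had 2 members measured, both over 1.5-fold higher, against 13.5% of measured genes, and 5.97% were over 1.5-fold lower. They were Cebpb at 1.05, not told apart from free RNA, and Cebpg at 1.10 (0.32 to 1.95) from 73 and 17 UMIs. The median over all genes was 0.11 in this type.

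In B cell-like and T cell-like cells no measured member passed 1.5-fold. B cell-like cells (519 and 82) had 2 members measured and 0 past 1.5-fold, where 13.4% of measured genes were over 1.5-fold higher and 8.58% lower. T cell-like cells (212 and 82) likewise had 2 measured and 0 past 1.5-fold, where 10% were higher and 8.63% lower. The Cebpb ratio was -0.26 (-0.66 to 0.17) in B cell-like and 0.06 (-0.24 to 0.37) in T cell-like cells. Grouped by Leiden clusters, T cells had 0.40. The T cell cluster led by Lef1, Trbc2 and Dusp10 (271 and 44 cells) had 461 and 302 CPM, a ratio of 0.61 (0.34 to 0.90). The one led by Ikzf2, Trbc2 and Cd3g (151 and 59 cells) had -0.23 (-0.54 to 0.10). The Lef1-led cluster also held 32.0 and 29.1 CPM of Cebpa, against 5.17 and 2.77 CPM in the Ikzf2-led one. Its median depths were 10400 and 6119.5 UMIs. Clusters kept barcodes that passed gates of 2 lineages, and the part of such barcodes in this ratio was not tested. In a plasma cell cluster of 63 and 5 cells the ratio was 1.07 (0.37 to 1.87). The Cebpb ratio of lymphoid cells thus depended on the grouping, and the part of free RNA in the Cebpb ratios of any type was not tested. Eosinophil-like, Ly6C-low monocyte-like and NK cell or ILC1-like cells, each with under 50 cells in a library, had 1 measured member each, Cebpb, and 0 past 1.5-fold. Measured genes over 1.5-fold higher and lower there were 10.9% and 19.5% in eosinophil-like, 9.79% and 11.6% in Ly6C-low monocyte-like, and 9.32% and 10.5% in NK cell or ILC1-like cells.

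Fibroblast-like cells, with 15 cells in the wild-type-labelled library, were under the 50-cell minimum, and their values are a description. Cebpd had 1659 UMIs in the deficient-labelled and 51 in the wild-type-labelled library, a log2 ratio of 1.84 (1.44 to 2.27). It was the 1 of 3 measured members over 1.5-fold higher, where 18% of measured genes were, and 0 were over 1.5-fold lower, where 12.1% were. A fibroblast cluster of 295 and 22 cells gave 1008 and 298 CPM, a ratio of 1.76. The 7 fibroblast markers summed to 28618 CPM in the deficient-labelled and 34323 CPM in the wild-type-labelled library. Median depth was 7400 and 10990 UMIs, and the part of depth in the ratio was not tested.

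Within clusters that share leading genes, Cebpb had the same sign in most monocyte and macrophage clusters. The cluster led by Chil3, Ly6c2 and F10 (604 and 188 cells) had a ratio of 0.27 (0.22 to 0.33), and the macrophage cluster led by Mmp13, Ms4a7 and C1qa (258 and 109 cells) had 0.31 (0.18 to 0.46). An unnamed cluster led by the inflammatory genes Il1a, Cxcl1 and Gdf15 (536 and 160 cells) had 1429 and 861 CPM, a ratio of 0.73 (0.65 to 0.82). The cluster led by Lyve1, Pf4 and Folr2, genes of perivascular macrophages, had 0.69 (lower bound 0.37) from 84 and 15 cells. A shallow unnamed cluster led by the predicted genes Gm26917 and Gm42418, with no macrophage marker among its leading genes and median depths of 930 and 1039 UMIs, had 0.23 (-0.19 to 0.65). The exceptions were a cluster led by Retnla, Lpl and Lyz1, at -0.17 (-0.34 to 0.01), and one led by Ccnb1ip1, Hes1 and F13a1, at -0.06 (-0.25 to 0.12). Among clusters of mostly cDC2-like cells, the one led by Mgl2, Ccl17 and Mt2 had 463 and 200 CPM of Cebpb, a ratio of 1.21 (1.07 to 1.35), and the one led by Cd7, Clec10a and Klrd1 had 393 and 265 CPM, a ratio of 0.57 (0.40 to 0.74). Those led by Plet1, Hist1h2ap and Hspa1a had Cebpb ratios of 0.44 (0.23 to 0.65), 1.05 (0.86 to 1.24) and 1.67 (1.28 to 2.07). These clusters were picked after their values were seen.

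The Cebpa ratio was less even across clusters. In macrophage clusters it was -0.04 (-0.41 to 0.35) in the one led by Mmp13 and 0.15 (-0.70 to 1.09) in the one led by Lyve1. Another cluster, whose gated cells were 96.2% macrophage-like and which was led by Lyz1, Il22ra2 and Pla2g2d, had 28 cells in the deficient-labelled library and 1 in the wild-type-labelled library, and those 28 cells held 132 Cebpa UMIs, or 228 CPM. The macrophage gates of the libraries therefore differed in their makeup for this gene. In Chil3-led monocytes the ratio was -0.11 (-0.44 to 0.22). Among the 5 clusters of mostly cDC2-like cells it was -1.02 (-1.44 to -0.60) where Plet1, Tbc1d4 and Il1r2 led, -0.91 (-1.39 to -0.44) where Cd7, Clec10a and Klrd1 led, -0.51 (-0.88 to -0.14) where the cell division genes Hist1h2ap, Pclaf and Top2a led, -0.05 (-0.46 to 0.37) where Mgl2 led, and 0.25 (-0.27 to 0.79) where Hspa1a, Hspa1b and Clec10a led.

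Other measures in some of the same cell types were as follows. In Ly6C-high monocyte-like cells the 9 monocyte markers summed to 6130 CPM in the deficient-labelled and 7084 CPM in the wild-type-labelled library, the 9 macrophage markers to 725 and 684 CPM, and the 7 neutrophil markers to 247 and 206 CPM. In macrophage-like cells monocyte markers summed to 793 and 1266 CPM, macrophage markers to 7748 and 7074 CPM, and neutrophil markers to 403 and 298 CPM. In cDC2-like cells neutrophil markers summed to 713 and 629 CPM, monocyte markers to 719 and 730 CPM, macrophage markers to 247 and 181 CPM, and the 8 mature dendritic cell markers to 1482 and 837 CPM. None of the listed neutrophil or macrophage markers was at 0 in these types, save 1 neutrophil marker among the wild-type-labelled macrophage-like cells. The 18 immediate-early and dissociation genes summed to 10726 and 12729 CPM in Ly6C-high monocyte-like cells and to 12091 and 14375 CPM in macrophage-like cells. Median depth in Ly6C-high monocyte-like cells was 7772 and 10083 UMIs. The part of these measures in the C/EBP ratios was not tested, except that the alternative below keeps only cells with few markers of other myeloid types.

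Restricted in that way, to 219 and 88 Ly6C-high monocyte-like and 220 and 87 macrophage-like cells, Cebpb kept ratios of 0.27 and 0.73, and Cebpg in macrophage-like cells had 1.28. In macrophage-like cells the Cebpa ratio was then 0.056 and the Cebpd ratio -0.019, so the differences of these 2 genes in macrophage-like cells were not seen in the restricted cells. Cebpa in Ly6C-high monocyte-like cells had -0.70. In 158 and 78 such cDC2-like cells Cebpb had 0.60, and Cebpd turned to -0.26. This alternative was chosen after the data were seen.

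Nr4a1 was named by the study together with C/EBP, and its relatives Nr4a2 and Nr4a3 are set beside it here. In Ly6C-high monocyte-like cells Nr4a1 had 193 CPM in the deficient-labelled and 323 CPM in the wild-type-labelled library, a log2 ratio of -0.74 (-0.87 to -0.61), and Nr4a2 had 258 and 396 CPM and -0.62 (-0.73 to -0.51). Nr4a3 had 205 and 236 CPM and -0.21 (-0.35 to -0.07). So in these cells Cebpb was higher, and Nr4a1 and Nr4a2 were lower. Of the 18 immediate-early and dissociation genes, 0 were over 1.5-fold higher there, against 6.8% of measured genes, and 5 were lower, against 6.72%. Their median was -0.24. A link of either to the Nr4a1 ratio was not tested. In macrophage-like cells, with Cebpb higher as well, Nr4a1 had 165 and 180 CPM and -0.13 (-0.31 to 0.05). Nr4a1 was also lower in types with little Cebpb, at 558 and 811 CPM in B cell-like cells (-0.54) and 303 and 587 CPM in T cell-like cells (-0.95).

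Within Ly6C-high monocyte-like cells thinned to 2000 UMIs, Nr4a1 was detected in 28.4% (24.9 to 32.0%) of 645 cells with a Cebpb UMI and in 37.3% (25 to 50.9%) of 59 cells without one in the deficient-labelled library. In the wild-type-labelled library the shares were 41.1% (34.9 to 47.5%) of 248 cells and 37.0% (19.4 to 57.6%) of 27 cells. The intervals with and without Cebpb overlapped in both libraries. Cebpd, in the same cells, was detected in 12.2% (9.82 to 15%) with and 5.08% (1.06 to 14.1%) without a Cebpb UMI in the deficient-labelled library, and in 13.7% (9.68 to 18.6%) and 22.2% (8.62 to 42.3%) in the wild-type-labelled library. Intervals overlapped for Cebpd too. With only 59 and 27 cells without a Cebpb UMI, the shares do not settle whether detection of Nr4a1 or Cebpd goes with that of Cebpb.

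Lists of genes around the C/EBP family were counted next to the shares of all genes given above, which were 6.8% higher and 6.72% lower in Ly6C-high monocyte-like cells and 7.91% and 5.24% in macrophage-like cells. Of 14 leucine zipper partners and regulators, 11 were measured in Ly6C-high monocyte-like cells and 0 passed 1.5-fold in either direction, with a median log2 ratio of -0.08, and the same 11 of 14 and 0 were counted in macrophage-like cells, with a median of 0.12. Atf4, the stress partner of C/EBPγ, had 619 and 652 CPM in Ly6C-high monocyte-like and 585 and 628 CPM in macrophage-like cells. Ddit3, a C/EBP relative that blocks DNA binding by its partners, had 65.5 and 59.2 CPM and 53.5 and 43.0 CPM. Nfil3, another leucine zipper factor, had 133 and 167 CPM, a ratio of -0.33 (-0.50 to -0.16), in Ly6C-high monocyte-like cells. Batf had 86.3 and 61.3 CPM there, a ratio of 0.49 (0.24 to 0.75), Batf3 had 17.9 and 22.9 CPM, and Trib3, a pseudokinase, had 4.84 and 3.53 CPM.

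The 8 myeloid receptor and antigen genes known as targets of C/EBPα and C/EBPβ were all measured in Ly6C-high monocyte-like cells, where 2 were over 1.5-fold higher, 0 lower, and the median was 0.26. In macrophage-like cells 7 were measured, 1 was higher and the median was 0.23. Cd14, the endotoxin co-receptor, was the one counted in both. It had 2507 CPM in the deficient-labelled and 1643 CPM in the wild-type-labelled library in Ly6C-high monocyte-like cells (0.61, 0.56 to 0.66) and 2069 and 1363 CPM in macrophage-like cells (0.60, 0.54 to 0.66). Tlr4, the endotoxin receptor, was the other in Ly6C-high monocyte-like cells, at 9.68 and 5.29 CPM. Csf1r, the receptor for the macrophage growth factor, had 594 and 477 CPM there, a ratio of 0.32, and Il6ra had 173 and 176 CPM.

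Of 20 inflammatory genes known as targets of C/EBPβ and C/EBPδ, 15 were measured in Ly6C-high monocyte-like cells. Among them 2 were over 1.5-fold higher and 7 lower, with a median of -0.50 against 0.01 for all genes. In macrophage-like cells 12 were measured, 1 was higher and 5 were lower, with a median of -0.40 against 0.02. Ccl2, a monocyte-attracting chemokine, had 141 and 725 CPM in Ly6C-high monocyte-like cells, a ratio of -2.37 (-2.49 to -2.25), and 312 and 757 CPM in macrophage-like cells. Cxcl1, a neutrophil attractant, had 577 and 1077 CPM in Ly6C-high monocyte-like cells (-0.90), and Il12b had 8.61 and 24.0 CPM. Il10, an anti-inflammatory cytokine, went the other way, with 1379 and 818 CPM in macrophage-like cells (0.75, 0.68 to 0.83). In both types Cebpb was thus higher while the median of this list was below 0, and a link between them was not tested. Other types differed. In cDC1-like cells 6 of 10 measured genes of the list were higher, against 5.9% of all measured genes. There 2 were lower, against 7.08%, and the list median was 0.78. In cDC2-like cells the list median was -0.01.

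The stress response list of C/EBPγ and Atf4 had 14 of 18 genes measured in Ly6C-high monocyte-like cells. Of these 4 were over 1.5-fold higher and 0 lower, with a median of 0.32, and Cebpg was level there. In macrophage-like cells, where Cebpg was higher, 14 were measured, 1 was higher, 2 were lower and the median was 0.22. The values depended on the UMI minimum. At 100 UMIs in place of 50, 2 of 11 measured genes were higher in Ly6C-high monocyte-like cells, with a median of 0.14. At 20 UMIs the median there was also 0.14. In macrophage-like cells 0 of 10 were higher and 2 lower at 100 UMIs, with a median of 0.11. A link to Cebpg was not tested. Gclc and Gclm, the subunits of the enzyme that limits glutathione synthesis, had 124 and 76.5 CPM (0.69) and 76.6 and 50.4 CPM (0.60) in Ly6C-high monocyte-like cells. Ppp1r15a, which ends the stress response, had 661 and 1257 CPM in macrophage-like cells (-0.93), and Atf3 had 415 and 659 CPM (-0.67). Atf3 also belongs to the 18 immediate-early genes, of which 0 were higher and 5 lower in Ly6C-high monocyte-like and 0 higher and 2 lower in macrophage-like cells, with medians of -0.24 and -0.21. Egr1, one of these, had 302 and 669 CPM in macrophage-like cells (-1.15), and Fos had 396 and 686 CPM in Ly6C-high monocyte-like cells (-0.79). Hspa1a, a heat shock gene, had 392 and 391 CPM there.

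A list of granule genes drawn up around C/EBPε, which need not all be its targets, was counted in neutrophil-like cells. There 7 of 14 were measured, 0 were over 1.5-fold higher, 2 were lower and the median was -0.12. Of all genes measured in these cells, 9.75% were over 1.5-fold higher and 9.93% lower, with a median of 0.01. Mmp9, a gelatinase of neutrophil granules and one of the gate markers, had 954 and 1918 CPM there (-1.01, -1.21 to -0.82). Chil3, a marker of the Ly6C-high monocyte gate, had 657 and 544 CPM in Ly6C-high monocyte-like cells (0.27). Cybb, a subunit of the phagocyte oxidase, had 1413 and 1718 CPM there (-0.28). Lyz2, which encodes lysozyme, had 856 and 932 CPM in neutrophil-like cells but 8616 and 4189 CPM in macrophage-like cells (1.04). In the list of Nr4a receptors and Ly6C-low genes, all 12 were measured in Ly6C-high monocyte-like cells, 0 were higher and 4 lower, with a median of -0.41. Ly6c2, Ace, Treml4 and Spn of this list are gate markers, so they helped to place the cells in which they were counted. Cx3cr1, the fractalkine receptor of Ly6C-low cells, was among those lower, at 77.5 and 126 CPM (-0.70), and Pou2f2 had 304 and 245 CPM (0.31). Ly6c2, the gene of the Ly6C antigen and a gate marker, had 862 and 1018 CPM (-0.24), and Treml4 had 74.6 and 65.2 CPM (0.19). Among glucocorticoid-induced genes, Fkbp5 had 22.6 and 4.94 CPM in Ly6C-high monocyte-like cells (2.19, 1.39 to 3.11), and Tsc22d3 had 139 and 58.6 CPM in macrophage-like cells (1.24, 0.96 to 1.53). Cd163, a scavenger receptor of macrophages, had 60.3 and 18.6 CPM in macrophage-like cells (1.70), and Ddit4 had 30.6 and 18.6 CPM (0.72). Of these 11 genes, 1 of 9 measured was higher in Ly6C-high monocyte-like and 4 of 10 in macrophage-like cells, and 0 were lower. In the list of interleukin 6 and Stat3 feedback genes, 9 of 10 were measured in each, 0 and 1 were higher and 0 were lower, and Socs3 was the one that was higher in macrophage-like cells, at 318 and 203 CPM (0.65). Bcl3 had 118 and 90.4 CPM (0.39) and Osm 61.5 and 71.8 CPM (-0.22) in those cells.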

How the data were processed

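The authors deposited a raw UMI count for each gene in each barcode. The submitters' processing notes name Cell Ranger, STAR 2.5.1b and the mm10 build, with no role given, and the file headers give software version 3.0.2. Per the labels, the cells were colonic lamina propria cells. Groups follow the titles and genotype labels. The C/EBP genes and all gene lists were chosen with earlier results of these data known.

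Barcodes with at least 500 UMIs, at least 200 genes and at most 20% mitochondrial UMIs were kept. Cell types were gated on 165 markers of 22 types: a barcode needed 4 detected markers (3 for small types, 2 including Ccr3 for eosinophils) and took the type with the largest share of its markers. Barcodes passing gates of 2 lineages (424 deficient-labelled, 93 wild-type-labelled), which stands in for doublet removal, ties (43 and 6) and barcodes in no gate (1185 and 675) were left out. The gate sizes were set after the data were seen; at exactly 4 markers lay 404 and 106 barcodes for the Ly6C-high monocyte gate and 237 and 68 for the macrophage gate. UMIs were summed per type and library as CPM with exact Poisson intervals. Ratios have exact conditional binomial intervals and shares exact Clopper-Pearson intervals. A count of 0 was given a limit of 3 counts. Sums in simulated data with known changes were tested with the same code.

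Named genes were the 5 members, up to 4 per list that passed 1.5-fold in the largest number of compared myeloid types, 3 per member most like it in pattern (genes with at least 200 UMIs, pseudocount 1), and Nr4a1, Nr4a2, Nr4a3, Ddit3, Atf4 and Nfil3. Leiden clusters, named by the gate of most of their cells unless markers of another type led or a shallow cluster had none of its own leading, were made without the members, in scanpy 1.11.5 with igraph 0.11.9 and leidenalg 0.10.2. Sums and intervals used scipy 1.17.1, pandas 2.3.3 and numpy 2.4.6, and plots matplotlib 3.10.9, under Python 3.11.15. Alternatives changed the mitochondrial and UMI limits, gates, clustering, lineage rule, scaling, centring, averaging, shared barcodes, thinning and gene minimum.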

Additional observations from a re-analysis of the deposited data

Results flagged for a closer look

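Some ratios between the libraries had opposite signs in different cell types, with intervals that left out 0 on both sides; the difference between the types was not tested. For Cebpa the log2 ratio, deficient-labelled over wild-type-labelled, was 0.41 in macrophage-like cells, against -0.43 in Ly6C-high monocyte-like and -0.67 in cDC2-like cells. In cells with few markers of other myeloid types the macrophage value was 0.056, so that contrast was not seen there. For Cebpd it was 0.34 in cDC2-like, 1.28 in mature dendritic cell-like (34 and 7 UMIs) and 1.84 in fibroblast-like cells, against -0.53 in macrophage-like and -0.61 in cDC1-like cells. In cells with few markers of other myeloid types Cebpd turned to -0.26 in cDC2-like and was -0.019 in macrophage-like cells, so the contrast of these types was not seen there either.

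Barcodes left out by the filters, 243 in the deficient-labelled and 410 in the wild-type-labelled library, also held C/EBP UMIs. Of these barcodes 28.0% and 25.4% had a Cebpb UMI, 6.58% and 4.88% a Cebpd UMI, 7.41% and 3.17% a Cebpg UMI, and 4.12% and 2.44% a Cebpa UMI. The intervals of the Cebpb shares, 22.4 to 34.1% and 21.2 to 29.9%, included the 24.6% and 22.0% of T cell-like cells thinned to 1000 UMIs. Against the lower gauge of free RNA, B cell-like cells, the interval lay above in the deficient-labelled library and overlapped in the wild-type-labelled library. The left-out barcodes were not thinned, with median depths of 977 and 1103 UMIs, so the shares are not on the same footing. These Cebpb UMIs are read neither as expression nor as background. Cebpe had 0 UMIs in them in both libraries.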

How the results depend on the processing

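The ratios of Cebpa, Cebpb, Cebpd and Cebpg in Ly6C-high monocyte-like and macrophage-like cells were recomputed under 11 alternatives. Of 88 values, 79 moved by less than the counting interval, 9 moved further and 0 reversed a called direction. Under Leiden clusters, Cebpb had 0.28 in Ly6C-high monocyte-like and 0.37 in macrophage-like cells, and Cebpg had 0.58 in macrophage-like cells, just under 1.5-fold. With a mean over cells, Cebpb in macrophage-like cells had 0.40. With at most 1 marker of other myeloid types, chosen after seeing the data, Cebpa had -0.70 and Cebpb 0.27 in Ly6C-high monocyte-like cells, and Cebpa 0.056, Cebpb 0.73 and Cebpd -0.019 in macrophage-like cells. Over all settings Cebpb ran from 0.27 to 0.36 and from 0.37 to 0.73 in these types. The reversed values were Cebpb in neutrophil-like cells, at -0.074 under Leiden clusters and -0.14 with barcodes of 2 lineages assigned, Cebpb in cDC1-like cells, at -0.29 under Leiden clusters, and Cebpd in cDC2-like cells, at -0.26 with few markers of other types; the cause was not tested. Of 589 other values, 553 stayed and 32 moved.

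Depth limits Cebpe, with 126 and 113 UMIs in all, and the shares of cells: without thinning 98.5% and 96.9% of Ly6C-high monocyte-like cells had a Cebpb UMI. No paired analysis was possible because each group was 1 library.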

Other observations

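Cebpe was also found outside granulocytes, in an unnamed cluster led by Retnla, Lpl and Lyz1 that held 79 cells of the deficient-labelled and 37 of the wild-type-labelled library. It had 16 UMIs there, or 21.9 CPM, and 12 UMIs, or 30.5 CPM, against 0.42 and 2.34 CPM in the macrophage cluster led by Mmp13. Cebpg in the same Retnla-led cells had 54 UMIs, or 73.8 CPM, in the deficient-labelled and 5 UMIs, or 12.7 CPM, in the wild-type-labelled library. In a cluster led by Arg1, Rsad2 and Ccl2, with 28 and 45 cells, Cebpb had 2251 and 1359 CPM, and Cebpe had 0 UMIs in the deficient-labelled and 7 UMIs, or 23.6 CPM, in the wild-type-labelled library. A cluster led by Jchain, Igkc and Igha, at 63 and 5 cells, had 250 and 119 CPM of Cebpb. These clusters were picked after their values were seen, and the values have no replicate.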
